A study of Homo sapiens with 24 samples.

Results

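The nuclear genes of mitochondrial oxidative phosphorylation (OXPHOS) were followed through RAS-induced senescence of IMR90 cells, a line of normal human fetal lung fibroblasts. The members were all genes whose array symbol begins with NDUFA, NDUFB, NDUFC, NDUFS, NDUFV, UQCR, COX4, COX5, COX6, COX7, COX8 or ATP5, with the succinate dehydrogenase genes and CYC1, and each gene was read from its probe with the highest mean log2 value over all arrays. The rule found 90 genes of 18774 named on the array, and 84 of them, of 10952 genes in all, were above background on at least 3 arrays and were tested. They comprise 35 complex I subunits, 7 complex I assembly factors that share the NDUFA prefix, 3 subunits of complex II, 9 of complex III, 11 of complex IV and 17 of complex V, with the ATP synthase inhibitor ATP5IF1 and the supercomplex factor COX7A2L. SDHB, NDUFA4 and NDUFA10 were not analysed here.

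All cells carried a RAS-G12V protein fused to the estrogen receptor, ER:RAS-G12V, which 4-hydroxytamoxifen (4-OHT) switches on. Untreated cells (0 h) and cells given 100 nM 4-OHT for 2 h, 8 h, 24 h, 2 d, 4 d, 6 d or 8 d were profiled on Illumina human-6 v2 arrays, with 3 biological replicates (batches A, B and D) per time point and 24 arrays in all. The 0 h cells carry the construct as well. No untreated cells kept for the later times were analysed here, so the effects of 4-OHT, of RAS and of time in culture cannot be told apart.

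The respiratory chain passes electrons from NADH (complex I) and succinate (complex II) through ubiquinone to complex III and cytochrome c, and from there to oxygen at complex IV. Complexes I, III and IV pump protons, and complex V, the ATP synthase, uses the proton gradient to make ATP. Most subunits are encoded in the nucleus, and those of mitochondrial DNA are not among the members. Some complex IV subunits exist as tissue forms, of which the heart and muscle form COX7A1 and the widespread form COX7A2 are an example.

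Many OXPHOS promoters are known to hold sites for nuclear respiratory factor 1 (NRF1), for the ETS factor GABP, for YY1 or for estrogen-related receptors (ERR). Of the 90 members, 74 had a promoter in the RefSeq table (GRCh38.p14), and the 250 bases before the start were searched on both strands for TGCGCA (part of the NRF1 site), CCGGAAG (ETS and GABP core), GATGGCG (YY1 core) and AAGGTCA (part of the ERR site). TGCGCA was present in 16 of 74 members (21.6%) and in 7.05% of all 27305 promoters of the table, and CCGGAAG in 17 of 74 (23%) against 8.82%. GATGGCG was present in 2 members (2.7% against 2.38%) and AAGGTCA in 4 (5.41% against 3.46%). The letters may overlap one another, and a match is a description of the sequence, not a site in use. The promoters of the largest rises and falls at 8 d among the members with an entry are shown, 5′ to 3′, with matches in capitals; the first 3 genes rose and the last 3 fell.
ATP5MK (chr10:103396476-103396725, minus strand): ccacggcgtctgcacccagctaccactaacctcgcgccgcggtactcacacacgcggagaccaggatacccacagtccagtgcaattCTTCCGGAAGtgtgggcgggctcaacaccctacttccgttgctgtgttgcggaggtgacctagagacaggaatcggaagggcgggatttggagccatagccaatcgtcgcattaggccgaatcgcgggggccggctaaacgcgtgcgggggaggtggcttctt
UQCRH (chr1:46303448-46303697, plus strand): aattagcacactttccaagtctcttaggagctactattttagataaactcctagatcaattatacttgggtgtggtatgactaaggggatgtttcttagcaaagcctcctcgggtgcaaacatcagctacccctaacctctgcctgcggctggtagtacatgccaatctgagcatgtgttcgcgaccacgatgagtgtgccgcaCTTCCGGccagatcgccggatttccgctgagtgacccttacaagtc
NDUFAF7 (chr2:37231408-37231657, plus strand): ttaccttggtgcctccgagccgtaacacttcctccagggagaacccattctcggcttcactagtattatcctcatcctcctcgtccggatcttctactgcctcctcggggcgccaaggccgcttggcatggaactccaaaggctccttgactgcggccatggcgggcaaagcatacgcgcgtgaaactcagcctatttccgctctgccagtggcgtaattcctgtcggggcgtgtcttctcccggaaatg
NDUFA12 (chr12:95003698-95003947, minus strand): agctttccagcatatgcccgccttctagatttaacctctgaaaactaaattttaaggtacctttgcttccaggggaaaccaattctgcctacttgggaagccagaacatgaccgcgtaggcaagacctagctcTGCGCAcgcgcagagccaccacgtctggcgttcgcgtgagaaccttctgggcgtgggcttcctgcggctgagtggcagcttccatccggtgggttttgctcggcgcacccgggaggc
NDUFA6 (chr22:42090773-42091022, minus strand): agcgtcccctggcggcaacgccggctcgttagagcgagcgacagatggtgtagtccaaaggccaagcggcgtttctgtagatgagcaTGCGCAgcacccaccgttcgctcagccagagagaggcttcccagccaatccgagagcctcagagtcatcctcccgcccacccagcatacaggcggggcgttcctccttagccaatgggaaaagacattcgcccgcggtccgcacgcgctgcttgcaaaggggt
NDUFA9 (chr12:4648864-4649113, plus strand): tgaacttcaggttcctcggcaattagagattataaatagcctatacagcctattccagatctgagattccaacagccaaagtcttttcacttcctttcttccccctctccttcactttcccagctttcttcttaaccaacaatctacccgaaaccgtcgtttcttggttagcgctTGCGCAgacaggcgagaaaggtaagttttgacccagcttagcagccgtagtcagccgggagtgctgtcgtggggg

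ATP5MK holds a pair of overlapping CCGGAAG matches 163 and 160 bases before its start, and UQCRH holds 1 match 46 bases before. NDUFA12, NDUFA6 and NDUFA9 each hold 1 TGCGCA, at 117, 163 and 75 bases before the start. In NDUFAF7 none of the 4 motifs was found in this window. Of the members with a promoter entry, TGCGCA was present in 5 of the 20 that rose at 8 d, in 3 of the 6 that fell and in 7 of the 43 that were not called. CCGGAAG was present in 5 of the 20, 0 of the 6 and 12 of the 43.

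The OXPHOS genes changed little in the first day. From 2 d on, more of them were called higher than lower on the quantile normalised scale. With each array centred on the median of all its probes, this held only at 4 d. Values are log2 intensities, differences are log2 with a standard error from the fit of all 24 arrays (n = 3 arrays per time point), and a gene is called where limma's p, adjusted by Benjamini-Hochberg over all 10952 genes, is under 0.05. The 7 comparisons with 0 h share its 3 arrays. At 2 h 0 of 84 members were called by limma (background 0.621% of all genes; 1 member at an unadjusted p under 0.05). At 8 h 0 were called (background 4.58%, of which 2.13% rose and 2.46% fell; 5 members at an unadjusted p under 0.05). At 24 h 3 rose and 2 fell (background 18.1%, of which 6.89% rose and 11.2% fell). At 2 d 10 rose and 2 fell (background 23.6%, of which 11% rose and 12.5% fell). At 4 d 19 rose and 5 fell (background 44.1%, of which 21.8% rose and 22.3% fell). At 6 d 18 rose and 6 fell (background 45.5%, of which 23.8% rose and 21.7% fell). At 8 d 26 rose and 6 fell (background 47.6%, of which 24.1% of all genes rose and 23.5% fell). In each of these comparisons the share of members called was below the share of all genes called. The members' share that rose was 11.9% at 2 d, 22.6% at 4 d and 21.4% at 6 d, near that of all genes. Their share that fell was 2.38%, 5.95% and 7.14%, below that of all genes. The share that rose at 8 d was 26 of 84, with a background of 24.1%, and the share that fell was 6 of 84, with a background of 23.5%. The rises at 4 d, 6 d and 8 d include NDUFB4, whose probe passed the filter only through later arrays. With a filter for genes above background on all 24 arrays, 24 members rose and 6 fell at 8 d.

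Every call went the same way in the 3 differences between arrays of the same batch. The calls were selected on these same arrays, so this is not separate support. The changes were small: of the 32 calls at 8 d, only that of ATP5MK was at least 2-fold, while 25.2% of all called genes were. The median absolute difference of the called members at 8 d was 0.47, against 0.63 over all called genes, and 52 of 84 members (61.9%) lay within 0.25 of their 0 h mean, against 43% of all genes. Over all 8 time points the F test called 43 of 84 members (background 69.7%), or 19 with batch A left out, 25 with batch B left out and 17 with each array centred on the median of all its probes. Over the time points together, the members' spread between arrays of a time point was also narrower, with a median SD of 0.10 against 0.13 over all genes. At 2 h it was wider, 0.17 against 0.15.

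**Figure D1:**
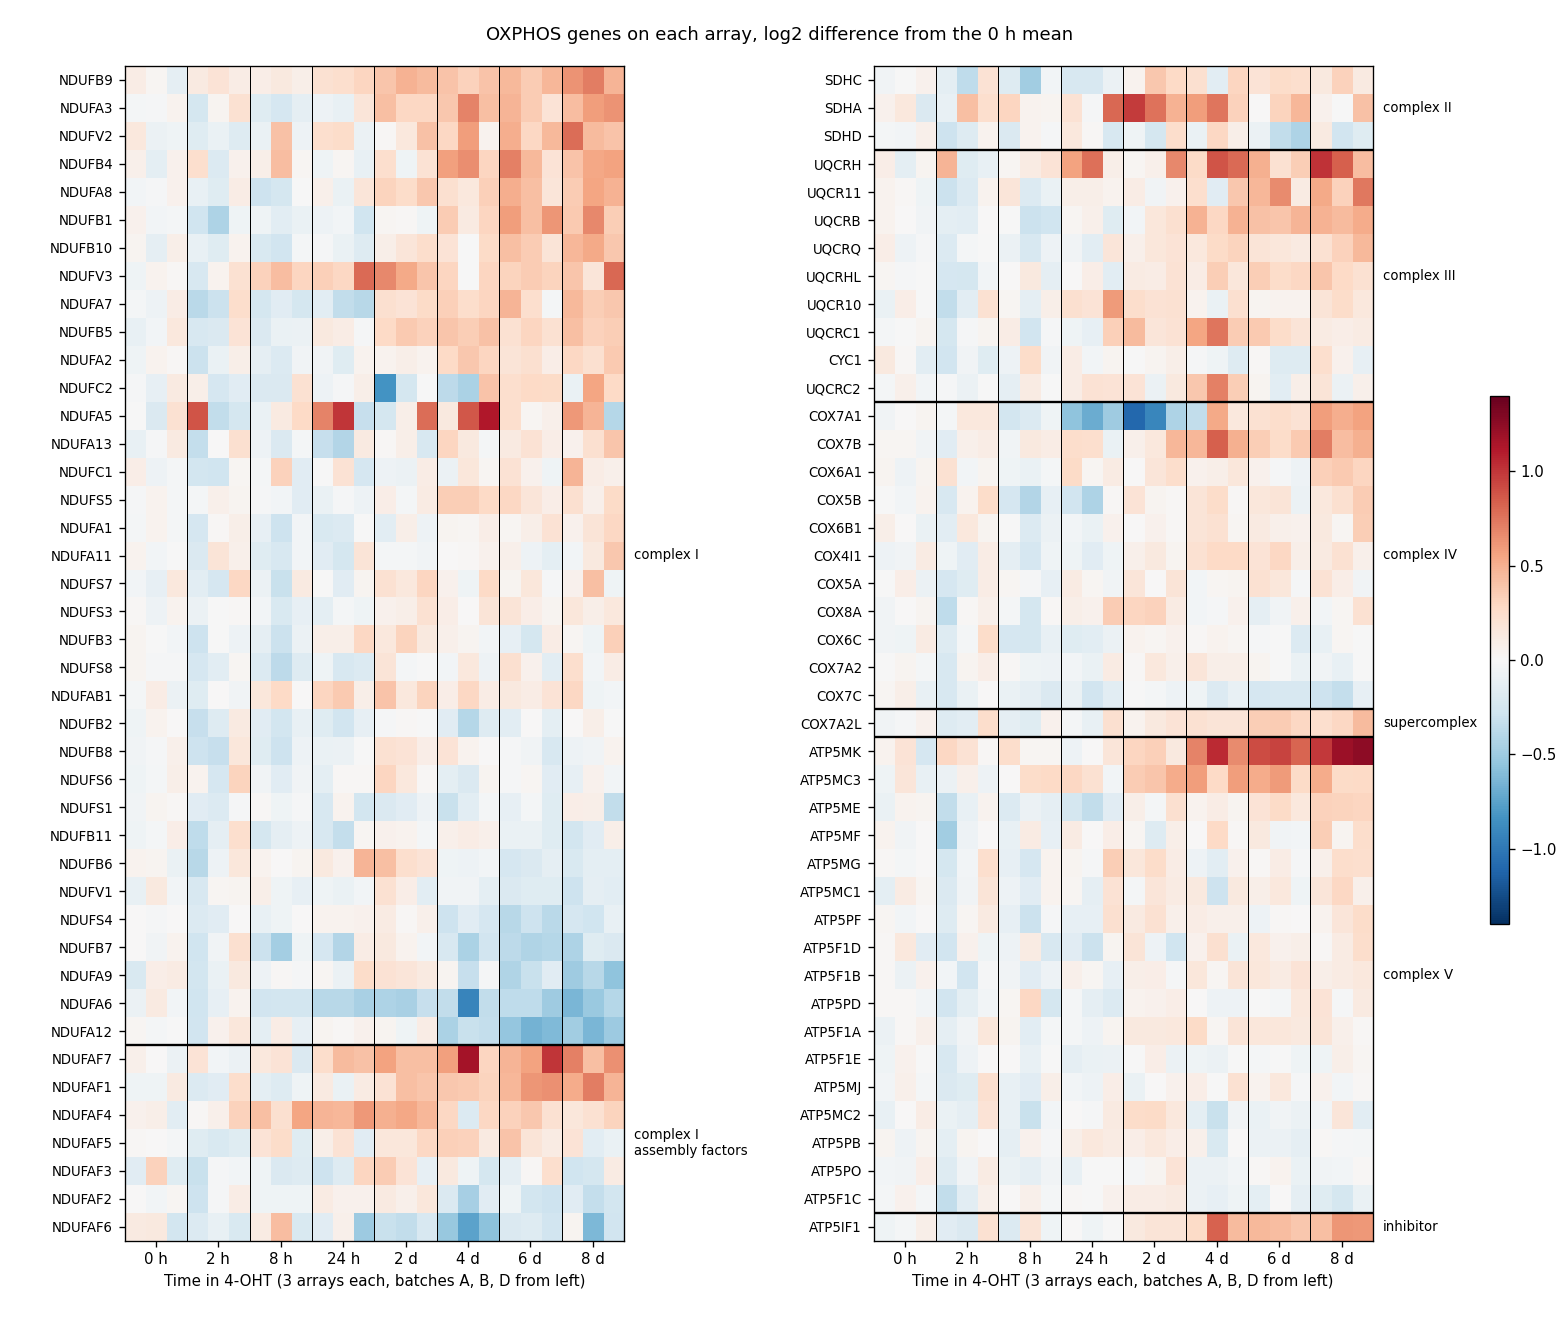
Log2 difference of each OXPHOS gene (rows, by complex and sorted by the 8 d value) from its mean over the 3 arrays at 0 h, on each of the 24 arrays (columns, batches A, B and D within each time point). ATP5MK is the darkest red at 8 d (1.15) and COX7A1 the darkest blue at 2 d (fell by 0.81), while most of complex V stays pale.

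The members' median difference from 0 h was −0.06 at 2 h, −0.06 at 8 h, −0.01 at 24 h, 0.12 at 2 d, 0.10 at 4 d, 0.09 at 6 d and 0.16 at 8 d, while that of all genes stayed between −0.02 and 0.03. These signs depend on the scaling. When each array was centred on the median of all its probes, most of which are at background, in place of quantile normalization, the median of all genes itself moved to −0.19 at 2 h, −0.13 at 24 h, −0.10 at 2 d, −0.06 at 4 d, −0.12 at 6 d and −0.15 at 8 d. The members' median was then −0.02 at 2 d, 0.04 at 4 d, −0.08 at 6 d and −0.11 at 8 d, so that it stayed above that of all genes but was below 0 at 2 d, 6 d and 8 d. On that scale 4 members rose and 8 fell at 8 d, 5 rose and 2 fell at 4 d, and 0 rose and 2 fell at 2 d. Of the 81 calls of the genes with full values, 30 were kept on that scale and 51 were lost, with no change of sign. With each array centred on the median of the tested genes, a setting added after seeing the data, 28 rose and 3 fell at 8 d, 30 and 2 at 4 d, and 11 and 1 at 2 d.

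**Figure D2:**
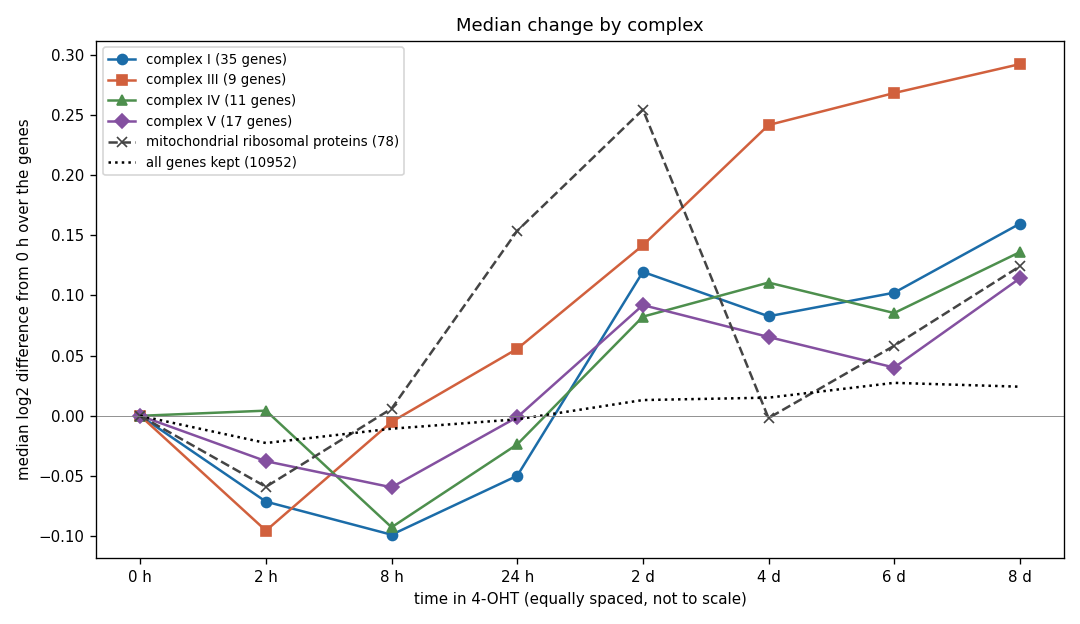
Median log2 difference from 0 h (y axis) over the genes of each complex, the mitochondrial ribosomal proteins and all genes tested, at the 8 time points (x axis, equally spaced). Complex III reaches 0.29 at 8 d and complex V 0.11, while the ribosomal proteins peak at 0.25 at 2 d; with centring on the median of all probes the 8 d medians were 0.01 for complex III, −0.11 for complex I and −0.14 for complex IV.

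Of the 84 members, 33 (39.3%) had their highest mean at 8 d and 21 (25%) at 2 d, while 30 (35.7%) had their lowest at 8 h and 18 (21.4%) at 2 h. Over all genes tested 18.4% had their highest mean at 8 d and 11.5% at 2 d, and 11.9% their lowest at 8 h and 12.6% at 2 h. The mean log2 value over the members was between 10.30 and 10.32 on the 0 h arrays and between 10.46 and 10.48 on the 8 d arrays, with no overlap. The median over all genes tested did not overlap either, at 7.64 to 7.66 at 0 h and 7.60 to 7.61 at 8 d. At 2 h the members' mean was 10.15, 10.23 and 10.39 in batches A, B and D, the widest spread of any time point. These peaks and means are on the quantile normalised scale. With centring on the median of all probes, the members' median difference from 0 h at 8 d was −0.11.

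The counts rest on few arrays. At 24 h, where 5 were called, the count was 2 without 0 h B, 0 h D or 24 h B, 3 without 24 h A, 24 h D or batch D, and 1 when batch A or batch B was left out. At 2 d, where 12 were called, it was 6 without 0 h A, 0 h B or 2 d D, 7 without 2 d A or 2 d B, 5 with batch B left out and 2 with batch A left out. At 4 d, where 24 were called, leaving out batch A gave 12 and leaving out batch B gave 10. At 6 d, where 24 were called, it was 14 without 6 d A, and leaving out batch A or batch B gave 7 or 10. At 8 d, where 32 were called, leaving out batch A or batch B gave 18 or 19.

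The ATP synthase (complex V) had the lowest share of subunits called by the F test of the 5 complexes, 3 of 17, and these 3 are small membrane subunits. ATP5MK, a small membrane subunit also known as DAPIT, was at 5.80, 5.95 and 5.52 at 0 h in batches A, B and D and at 6.05, 6.09 and 5.90 at 2 d. It was at 6.45, 6.80 and 6.42 at 4 d, at 6.67, 6.70 and 6.57 at 6 d and at 6.75, 6.96 and 7.01 at 8 d. All arrays of 4 d, 6 d and 8 d lay above all arrays of 0 h to 2 d. It rose by 0.80 ± 0.12 at 4 d (limma adjusted p = 1.37e-05), 0.89 ± 0.12 at 6 d (2.63e-06) and 1.15 ± 0.12 at 8 d (5.62e-08), or 2.22-fold. It was called at each of these times with either scaling (1.00 at 8 d with centring on the median of all probes, adjusted p = 7.05e-06). Its probe is dim at 0 h, above background on 3 of 3 arrays, and the offset of 16 used here understates changes of dim probes.

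The c subunit, which forms the rotating ring, is encoded by ATP5MC1, ATP5MC2 and ATP5MC3, whose mature proteins are the same. ATP5MC3 was at 6.66, 6.89 and 6.63 at 0 h and at 7.31, 7.01 and 7.31 at 4 d, with no overlap. It rose by 0.42 ± 0.12 at 2 d, 0.48 ± 0.12 at 4 d, 0.46 ± 0.12 at 6 d and 0.35 ± 0.12 at 8 d (adjusted p = 0.0135, 0.00243, 0.00313 and 0.0187). All 4 calls were lost with centring on the median of all probes (0.146 to 0.588) and without batch A (0.0806 to 0.275), those at 2 d and 8 d also without 0 h A or 0 h D (0.0551 to 0.0744), that at 2 d without 2 d D (0.0603) or batch D (0.0976), and that at 8 d without 8 d A (0.0999). ATP5MC1 was not called in any comparison (0.18 at 8 d), but its other probe was 0.74 above 0 h at 8 d (unadjusted p = 3.1e-05). ATP5MC2 was at 12.89, 12.90 and 12.77 at 2 d and at 12.50, 12.32 and 12.58 at 4 d, without overlap, and fell by 0.39 ± 0.11 between them (adjusted p = 0.00705), where its other probe was 0.11 higher (unadjusted p = 0.366). That call was lost with centring on the median of all probes (0.321), on that of the tested genes (0.141) and without batch A (0.116) or batch B (0.149). The e subunit ATP5ME rose by 0.31 ± 0.10 at 8 d (adjusted p = 0.0111), and its other probes, of which 1 was above background on 24 arrays and 1 on 3, were 0.83 and 0.52 higher. Of the catalytic head, ATP5F1A, ATP5F1B and ATP5F1C were not called in any comparison. The lowest evidence of change by the F test in the complex was for ATP5MJ (adjusted p = 0.839), whose means spanned 0.16 over the 8 time points.

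ATP5IF1, the peptide that inhibits ATP hydrolysis by the synthase, rose by 0.51 ± 0.13 at 4 d, 0.42 ± 0.13 at 6 d and 0.55 ± 0.13 at 8 d (adjusted p = 0.00216, 0.00897 and 0.00106). Its probes disagree: the other probe was 0.38 above 0 h at 2 d (unadjusted p = 0.00883), where the probe used was 0.16 higher, and 0.01 above at 8 d.

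**Figure D3:**
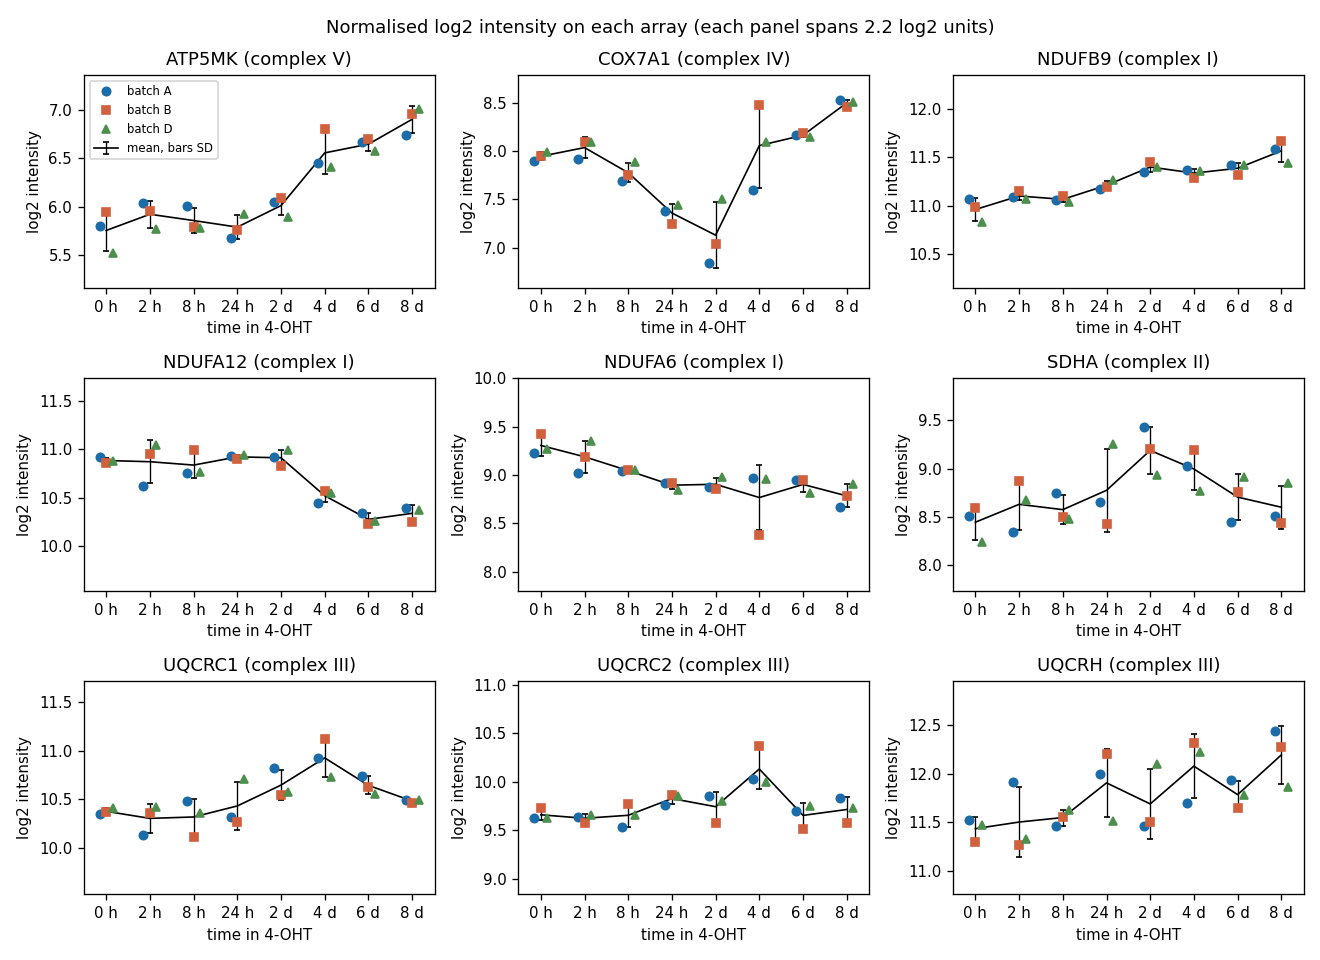
Normalised log2 intensity (y axis, panels of equal height in log2 units) of 9 OXPHOS genes on each array at the 8 time points (x axis); points are arrays, by batch, and the line joins the means of 3 arrays, with bars for the SD. COX7A1 falls to 6.85, 7.04 and 7.51 at 2 d and is at 8.53, 8.46 and 8.51 at 8 d, and NDUFA12 drops between 2 d and 4 d.

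In complex IV the largest swing was that of COX7A1, the heart and muscle form of subunit VIIa. It was at 7.90, 7.95 and 7.99 at 0 h, at 7.38, 7.25 and 7.44 at 24 h and at 6.85, 7.04 and 7.51 at 2 d. It was then at 7.60, 8.48 and 8.10 at 4 d, at 8.16, 8.19 and 8.14 at 6 d and at 8.53, 8.46 and 8.51 at 8 d. The 24 h and 2 d arrays lay below those of 0 h, the 6 d and 8 d arrays lay above them, and the 4 d arrays spread across both. It fell by 0.59 ± 0.16 at 24 h (adjusted p = 0.0123) and by 0.81 ± 0.16 at 2 d (0.000575), rose by 0.92 ± 0.16 from 2 d to 4 d (7.77e-05) and was 0.55 ± 0.16 above 0 h at 8 d (0.00615). The calls at 24 h, at 2 d and from 2 d to 4 d were kept with centring on the median of all probes, and the call at 8 d was lost (0.28, adjusted p = 0.292). The call at 24 h was also lost without 24 h B (0.0537) or batch B (0.105).

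COX7A2, the widespread form of the same subunit, was not called in any comparison, and its 8 d difference of −0.06 had a 95% interval from −0.25 to 0.13. COX7A2L, a related protein that joins complexes III and IV into supercomplexes, rose by 0.33 ± 0.11 at 6 d and 0.32 ± 0.11 at 8 d (adjusted p = 0.017 and 0.0185). Both calls were lost with centring on the median of all probes (adjusted p = 0.499 and 0.765) and without 0 h A (0.0568 and 0.0605), batch A (0.18 and 0.117) or batch B (0.145 and 0.113). That at 6 d was also lost without 6 d B (0.0501), and that at 8 d without 0 h B (0.0508) or 8 d D (0.0857).

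COX7B rose by 0.60 ± 0.12 at 4 d and 0.55 ± 0.12 at 8 d (adjusted p = 0.000426 and 0.000863), with all arrays of both times, 11.10 to 11.50, above the 10.62 to 10.70 of 0 h. The 8 d call was lost with centring on the median of all probes (0.313), as was that of COX6A1 (0.791). COX6A1, the form of subunit VIa found outside muscle, was at 10.86, 10.74 and 10.86 at 0 h and at 11.15, 11.19 and 11.12 at 8 d, and rose by 0.33 ± 0.09 (0.00458; 0.109 without batch B). COX4I1 rose by 0.26 ± 0.09 at 4 d (0.0281), a call lost with centring on the median of all probes (0.51) and without 0 h A, 0 h B, 4 d B, 4 d D, batch A or batch B (adjusted p from 0.0664 to 0.238). COX7C fell by 0.25 ± 0.09 at 8 d (0.0261), a call lost with centring on the median of the tested genes (0.18) and without 0 h A, 0 h B, 8 d A, 8 d B, batch A or batch B (adjusted p from 0.073 to 0.342). COX6B1 and COX8A were not called in any comparison.

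The tissue forms COX4I2, COX6A2, COX6B2, COX7B2 and COX8C were not well above background on any of the 24 arrays, and neither was the antisense RNA NDUFV2-AS1. Of the 84 members tested, 81 were above background on all 24 arrays, NDUFB1 on 22, NDUFB4 on 12 and NDUFAF3 on 3.

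Complex I, which takes electrons from NADH, has 35 of the 75 subunits tested. At 8 d 11 of the 35 rose (31.4%, background 24.1%) and 4 fell (11.4%, background 23.5%), and with centring on the median of all probes 2 rose and 6 fell. The 11 include NDUFB4, whose probe passed the filter only through later arrays. The 4 that fell were NDUFA12, NDUFA6, NDUFA9 and NDUFS4, all accessory subunits.

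NDUFA12 was at 10.91, 10.86 and 10.88 at 0 h and at 10.92, 10.83 and 10.99 at 2 d. It was at 10.44, 10.57 and 10.55 at 4 d, at 10.34, 10.22 and 10.26 at 6 d and at 10.40, 10.24 and 10.37 at 8 d. The arrays of 4 d to 8 d all lay below those of 0 h to 2 d. It fell by 0.39 ± 0.10 from 2 d to 4 d (adjusted p = 0.00396; 0.0762 without batch A), and was 0.61 ± 0.10 below 0 h at 6 d (2.82e-05) and 0.55 ± 0.10 below at 8 d (9.67e-05). The fall from 2 d to 4 d was also lost with centring on the median of all probes (0.209), and those at 6 d and 8 d were kept. Its 2 d difference was 0.03, with a 95% interval from −0.18 to 0.24.

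NDUFA6, which holds the acyl carrier protein NDUFAB1 on the complex, was lower from the first day on. It was at 9.22, 9.43 and 9.27 at 0 h, at 8.92, 8.92 and 8.85 at 24 h, at 8.88, 8.85 and 8.98 at 2 d and at 8.67, 8.78 and 8.90 at 8 d, each set below all 0 h arrays. It fell by 0.41 ± 0.12 at 24 h (adjusted p = 0.0245), 0.40 ± 0.12 at 2 d (0.0218), 0.54 ± 0.12 at 4 d (0.00117), 0.40 ± 0.12 at 6 d (0.0108) and 0.52 ± 0.12 at 8 d (0.00136). At 4 d array B was at 8.38 against 8.96 and 8.96, and the difference was −0.34 without that array (0.0122) and −0.28, no longer called, without 0 h B and 4 d B together (0.144). The call at 24 h was lost without any 1 of its arrays, 0 h B, 0 h D or any 1 batch (adjusted p from 0.0535 to 0.134). That at 2 d was lost without 0 h B, 2 d A, 2 d B, batch A or batch B (0.065 to 0.157), and that at 6 d without 0 h B or any 1 batch (0.0512 to 0.0581). With centring on the median of the tested genes the calls at 24 h and 2 d were lost (0.057 and 0.0573). Those at 4 d, 6 d and 8 d were kept.

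NDUFA9, which binds a nucleotide cofactor, was at 9.44, 9.75 and 9.76 at 0 h, at 9.69, 9.33 and 9.64 at 4 d and at 9.16, 9.26 and 9.09 at 8 d. The 8 d arrays lay below all others of the 3 times. It fell by 0.48 ± 0.12 at 8 d (adjusted p = 0.00202) and by 0.38 ± 0.12 from 4 d to 8 d (0.0269; lost without 4 d A, 4 d D, 8 d A, 8 d D, batch A or batch D, 0.0648 to 0.256). NDUFS4, a subunit mutated in Leigh syndrome, fell by 0.35 ± 0.08 at 6 d (0.00121; 0.0667 without batch A). Its fall at 8 d was 0.21 ± 0.08 (0.042), lost with centring on the median of the tested genes (0.188; 0.0505 at 6 d) and without any 1 array of 0 h, 8 d A, 8 d B, batch A or batch B (0.0774 to 0.279).

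NDUFB9, a membrane arm subunit, had the second lowest p of the rises at 8 d. It was at 11.07, 10.98 and 10.83 at 0 h, at 11.35, 11.45 and 11.40 at 2 d and at 11.59, 11.67 and 11.44 at 8 d, and each array from 2 d on lay above all 3 of 0 h. It rose by 0.44 ± 0.09 at 2 d, 0.38 ± 0.09 at 4 d, 0.43 ± 0.09 at 6 d and 0.60 ± 0.09 at 8 d (adjusted p = 0.000594, 0.00104, 0.000267 and 3.15e-06). With centring on the median of all probes it was 0.35 higher at 8 d (0.0825), and the calls at 2 d, 4 d and 6 d were lost too (0.209, 0.103 and 0.21). NDUFV3, a small subunit of the NADH-binding end, rose by 0.47 ± 0.15 at 24 h, 0.53 ± 0.15 at 2 d and 0.46 ± 0.15 at 8 d (0.0294, 0.0111 and 0.0141). The 24 h call was lost without any 1 array of 0 h, 24 h D or any 1 batch (0.0523 to 0.18). That at 2 d was lost without 2 d A, batch A or batch B (0.0596, 0.238 and 0.0672), and that at 8 d without 8 d D, batch A or batch D (0.128, 0.105 and 0.0826). All 3 calls were lost with centring on the median of all probes (0.249, 0.122 and 0.244). NDUFB4 was not above background on any 0 h array and was above it on 3 of 3 at 8 d, where it was at least 1.24-fold higher (measured means 5.81 and 5.31, adjusted p = 0.00478). Its probe passed the filter only through later arrays, 12 in all, so this p-value is not separate support for the rise.

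NDUFB7, a membrane arm subunit, was at 10.60, 10.54 and 10.64 at 0 h and at 10.23, 10.17 and 10.19 at 6 d, without overlap, and fell by 0.40 ± 0.13 (adjusted p = 0.0179). That call was lost without 0 h D (0.0527), batch A (0.109) or batch B (0.0788) and with centring on the median of the tested genes (0.0589).

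Among the core subunits tested, NDUFV2 rose by 0.54 ± 0.15 at 8 d (adjusted p = 0.00461), while NDUFV1, NDUFS1, NDUFS3, NDUFS7 and NDUFS8 were not called in any comparison. NDUFS1, which holds iron-sulfur clusters, had the highest F test p of the complex (adjusted p = 0.766), and its means spanned 0.16. NDUFA5 shows the limit of 3 arrays: it was 0.71 ± 0.34 above 0 h at 4 d (0.0957), with SDs between 0.11 and 0.70 within a time point.

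The complex I assembly factors, proteins needed to build the complex but absent from it when finished, moved in both directions. NDUFAF7, a methyltransferase that acts on a core subunit, was at 5.82, 5.76 and 5.66 at 0 h and at 6.45, 6.17 and 6.38 at 8 d, without overlap. It rose by 0.47 ± 0.17 at 2 d, 0.68 ± 0.17 at 4 d, 0.68 ± 0.17 at 6 d and 0.59 ± 0.17 at 8 d (adjusted p = 0.0426, 0.00179, 0.00163 and 0.00515). The 2 d call was lost in every fit that left out an array of either time or a batch (0.0576 to 0.262), the 4 d call without batch B (0.082) and the 8 d call without batch A (0.073). NDUFAF1 rose by 0.57 ± 0.11 at 6 d and 0.57 ± 0.11 at 8 d (0.000215 and 0.000189), with all 6 d and 8 d arrays, 8.83 to 9.09, above the 8.31 to 8.50 of 0 h. Centring on the median of all probes left 0.35 (0.0915) and 0.30 (0.139).

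NDUFAF4 was at 8.28, 8.30 and 8.07 at 0 h and at 8.69, 8.68 and 8.83 at 24 h, a rise of 0.52 ± 0.12 (adjusted p = 0.00431). That call was lost without batch A (0.0772), without batch D (0.0571) and with centring on the median of all probes, where it was 0.34 (0.2). It fell by 0.37 ± 0.12 from 2 d to 4 d (0.021). Array B at 4 d was at 8.03 against 8.51 and 8.51, and the fall from 2 d was not called without it (−0.21, 0.186), nor without 2 d B (0.0679), batch A (0.0896) or batch B (0.4) or with that centring (0.135). NDUFAF6 was at 7.90, 7.91 and 7.52 at 0 h and at 7.25, 7.03 and 7.20 at 4 d, a fall of 0.62 ± 0.16 (0.00369; 0.0632 without batch A). NDUFAF2, a relative of NDUFA12 that acts late in assembly, was at 10.41, 10.35 and 10.45 at 2 d and at 10.08, 9.82 and 10.13 at 4 d. This was a fall of 0.40 ± 0.10 (0.00429; 0.126 without batch B and 0.182 with centring on the median of all probes), between the same 2 times as that of NDUFA12. At 8 d it was at 10.13, 9.95 and 10.03, below the 10.25 to 10.31 of 0 h, a fall of 0.25 ± 0.10 (0.0493; 0.0503 with the replicate letter as a block). The 8 d call was lost without any 1 array of 0 h, 8 d B, 8 d D or any 1 batch (0.0747 to 0.233). Centring on the median of the tested genes lost it too (0.12).

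In complex II, SDHA, the flavoprotein that oxidises succinate, was highest at 2 d on the probe used. It was at 8.51, 8.59 and 8.24 at 0 h, at 9.43, 9.20 and 8.93 at 2 d, at 9.03, 9.19 and 8.76 at 4 d and at 8.51, 8.44 and 8.85 at 8 d, and the 8 d arrays overlapped those of 0 h. It rose by 0.74 ± 0.19 at 2 d (adjusted p = 0.00577; 0.123 without batch A) and 0.55 ± 0.19 at 4 d (0.021; lost without 0 h D, 4 d A, 4 d B, batch A or batch B, 0.0536 to 0.114). Both calls were lost with centring on the median of all probes (0.0511 and 0.127). The probes of SDHA disagree: at 2 d the other probes were 0.13 (unadjusted p = 0.324) and 0.58 (0.0384) above 0 h. At 4 d these probes were 0.01 (0.943) and 0.84 (0.0043) above 0 h. The membrane anchors SDHC and SDHD were not called against 0 h at any time, with 95% intervals at 8 d from −0.09 to 0.48 and from −0.40 to 0.19. SDHC passed the F test (adjusted p = 0.0133), with its highest mean at 2 d and its lowest at 8 h.

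Complex III had the highest median at 8 d, 0.29 over 9 genes. Of these 5 rose and 0 fell, beside 24.1% of all genes that rose and 23.5% that fell. The 5 include UQCRH and UQCRHL, which may be 1 signal. With centring on the median of all probes 0 were called and the median was 0.01. The members of complex III followed different courses. The core proteins UQCRC1 and UQCRC2 peaked at 4 d: UQCRC1 was at 10.35, 10.36 and 10.41 at 0 h, at 10.93, 11.13 and 10.72 at 4 d and at 10.49, 10.46 and 10.49 at 8 d. Its 4 d arrays lay above those of both other times. UQCRC1 rose by 0.55 ± 0.13 at 4 d (adjusted p = 0.0011) and fell by 0.45 ± 0.13 from 4 d to 8 d (0.015; lost without 4 d B, batch A or batch B, 0.079, 0.127 and 0.205). UQCRC2 was at 9.63, 9.73 and 9.62 at 0 h, at 10.03, 10.37 and 10.00 at 4 d and at 9.84, 9.58 and 9.73 at 8 d. It rose by 0.47 ± 0.11 (0.00111; 0.156 with centring on the median of all probes) and fell by 0.42 ± 0.11 (0.00812; lost without 4 d B, 8 d B, batch A or batch B, 0.0509 to 0.227).

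Of the small complex III subunits, UQCRB, UQCRH, UQCRHL, UQCRQ and UQCR11 rose at 8 d. UQCR10 was not called in any comparison. UQCRB, which contributes to the ubiquinone site, was at 9.77, 9.73 and 9.67 at 0 h, at 10.21, 10.02 and 10.21 at 4 d and at 10.21, 10.17 and 10.24 at 8 d, with no overlap of either time with 0 h. It rose by 0.42 ± 0.10 at 4 d, 0.43 ± 0.10 at 6 d and 0.48 ± 0.10 at 8 d (adjusted p = 0.00139, 0.0012 and 0.00032). These 3 calls were lost with centring on the median of all probes, where the rises were 0.33, 0.23 and 0.20 (adjusted p = 0.162, 0.344 and 0.399). UQCRH, the hinge protein that helps cytochrome c bind, was at 11.53, 11.30 and 11.48 at 0 h, at 11.70, 12.31 and 12.23 at 4 d and at 12.45, 12.27 and 11.87 at 8 d, with both later times above 0 h. It rose by 0.65 ± 0.20 at 4 d (adjusted p = 0.0127) and 0.76 ± 0.20 at 8 d (0.00351). The 4 d call was lost without 0 h B (0.0536), 4 d B (0.0675) or batch B (0.216) and the 8 d call without batch B (0.0655), and both with centring on the median of all probes (0.0525 and 0.0922). It is uncertain, since UQCRHL is a near-identical copy whose transcripts its probe may also bind. UQCRHL was read from another probe, brighter on average (13.42 against 11.77 for UQCRH), and rose by 0.29 ± 0.10 at 8 d (0.0155). That probe may likewise bind UQCRH transcripts, so the rises of UQCRH and UQCRHL may be 1 signal. This was not tested. CYC1, the cytochrome c1 subunit that passes electrons to cytochrome c, was not called in any comparison, and its 8 d difference of 0.06 had a 95% interval from −0.17 to 0.29.

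From 2 d to 4 d, 9 members rose and 7 fell (background 36.2%). The rises were led by COX7A1 (0.92 ± 0.16), ATP5MK (0.54 ± 0.12; adjusted p = 0.00139, 0.0552 without batch B) and UQCRC2 (0.39 ± 0.11; 0.0072, lost without 2 d B, 4 d B or batch B, 0.0587 to 0.289). The falls were led by NDUFAF2, NDUFA12 and ATP5MC2. The count of 16 was 10 without 2 d A, 8 without 2 d B, 9 without 4 d B, 4 without batch A and 2 without batch B. From 4 d to 8 d, 1 rose and 3 fell (background 20.4%, of which 10.4% rose and 10.1% fell). NDUFB10 rose by 0.31 ± 0.10 (0.0364), a call lost without 4 d A, 4 d B, 8 d A, 8 d B, batch A or batch B (0.0585 to 0.42). It was 0.12 with centring on the median of all probes (0.744) and 0.24 with that on the tested genes (0.147), while UQCRC1, UQCRC2 and NDUFA9 fell. The count of 4 was 2 without 4 d A or batch B, 0 when batch A was left out and 8 when batch D was.

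**Figure D4:**
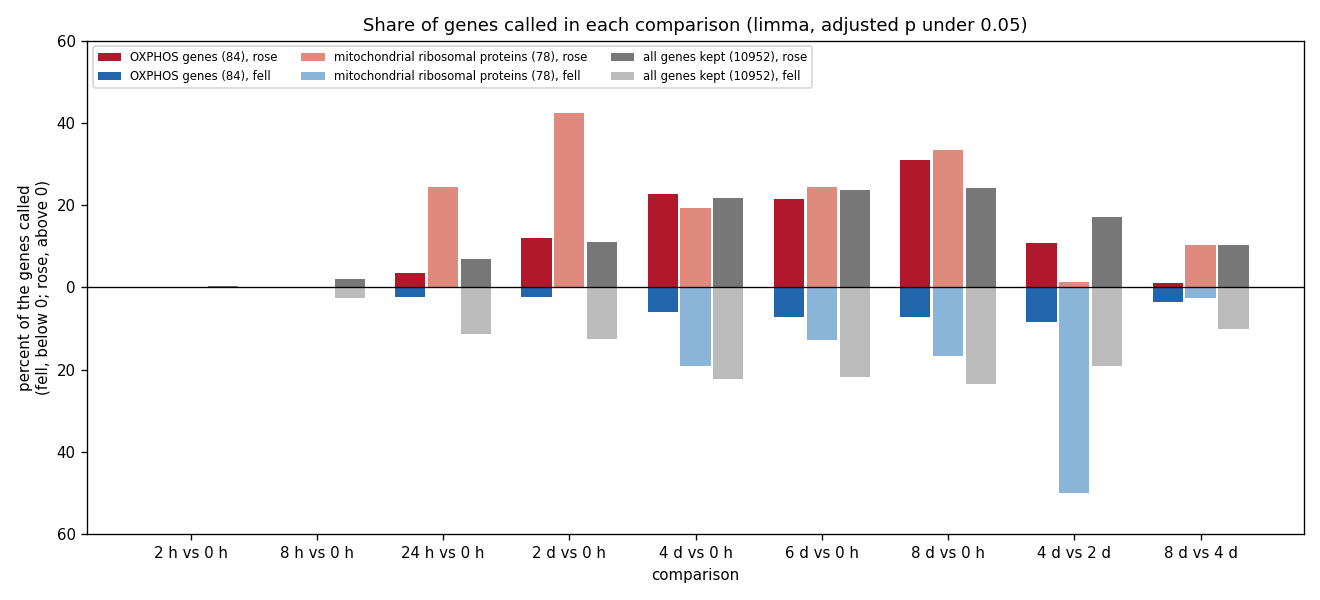
Share of genes called in each comparison (x axis), in percent of the genes tested (y axis; rises above 0, falls below 0), for the 84 OXPHOS genes, 78 mitochondrial ribosomal protein genes and all 10952 genes. At 2 d 33 ribosomal protein genes and 10 OXPHOS genes rose, and from 2 d to 4 d 39 and 7 fell; with centring on the median of all probes 1 and 0 rose at 2 d, and 16 ribosomal and 0 OXPHOS genes fell from 2 d to 4 d.

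Genes of the mitochondrial ribosome, which makes the subunits encoded in mitochondrial DNA, were counted in the same way. Of 78 tested, 19 rose and 0 fell at 24 h, 33 rose and 0 fell at 2 d, and 1 rose and 39 fell from 2 d to 4 d, with medians of 0.15, 0.25 and −0.28. The shares of all genes were 6.89% rising at 24 h, 11% rising at 2 d and 19.2% falling from 2 d to 4 d. The OXPHOS genes had medians of −0.01, 0.12 and −0.02. MRPL36 rose by 0.86 ± 0.10 at 2 d (adjusted p = 1.37e-06), and MRPL11 fell by 0.91 ± 0.12 from 2 d to 4 d (4.25e-06). The difference between the 2 lists was not tested. The 33 rises at 2 d were 6 without batch A, 10 without batch B and 1 with centring on the median of all probes, and the 39 falls were 22, 11 and 16.

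Of 39 other assembly factors and cofactor enzymes of the complexes, 14 rose at 8 d and 3 fell (3 and 6 with centring on the median of all probes; 8 and 3 without batch A, 9 and 3 without batch B). SCO2, a copper chaperone of complex IV, rose by 1.07 ± 0.12 (adjusted p = 1.02e-07), COX14 by 1.05 ± 0.16 (8.83e-06), and COX20 fell by 0.99 ± 0.13 (1.17e-06). Of 19 genes of electron carriers, ubiquinone synthesis, adenylate carriers and porins, 1 rose and 10 fell from 2 d to 4 d. Of all genes, 17% rose and 19.2% fell between these times. The counts were 0 and 4 with that centring, 0 and 6 without batch A and 1 and 5 without batch B. Among the falls were the ubiquinone synthesis genes COQ3 (−1.15 ± 0.17, 1.45e-05) and COQ2 (−0.89 ± 0.12, 4.2e-06) and the ATP and ADP exchanger SLC25A4 (−0.99 ± 0.13, 4.52e-06).

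The counts of the pathway lists at 8 d stand beside 24.1% of all genes that rose and 23.5% that fell. Of 15 regulators of respiratory genes and mitochondrial DNA, 6 rose and 3 fell at 8 d (3 and 4 with centring on the median of all probes; 5 and 1 without batch A). The mitochondrial RNA polymerase POLRMT rose by 0.96 ± 0.11 (adjusted p = 2.3e-07), the estrogen-related receptor ESRRA by 0.94 ± 0.11 (3.13e-07) and the coactivator PPARGC1B by 0.79 ± 0.16 (0.000251), while TFAM, which packages mitochondrial DNA, fell by 0.66 ± 0.13 from 2 d to 4 d (0.000306). Of 11 genes of the tricarboxylic acid cycle, 3 rose (27.3%) and 2 fell (18.2%) at 8 d (0 and 3 with that centring; 2 and 1 without batch A, 1 and 1 without batch B), with IDH2 at −1.42 ± 0.14 (1.13e-08). Of 13 genes of pyruvate entry and lactate, 2 rose and 3 fell (0 and 4 with that centring), with LDHA at −0.63 ± 0.13 (0.00038). Of 13 genes of mitochondrial fusion, fission and mitophagy, 4 rose and 2 fell (2 and 3 with that centring; 1 and 1 without batch A, 3 and 1 without batch B), with the mitophagy receptor BNIP3L at 1.20 ± 0.20 (2.51e-05) and the fusion gene OPA1 at −0.60 ± 0.14 (0.000891).

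The arrays were similar in quality, with 26.5% to 30.0% of 48701 probes above background. All 9 fibroblast markers were above background on all arrays, while CDH1, KRT5, KRT14, CDH5, PTPRC, CD3E and CD14, markers of epithelial, endothelial and immune cells, were above it on 0 arrays. Of the same lists, VWF was above it on 18 arrays, KRT19 on 7, KRT8 on 6, PECAM1 on 5, EPCAM on 4 and KDR on 3, and KRT18, TEK and CD68 on all 24. The summed level of the fibroblast markers was 54210 to 60230 at 0 h and 28470 to 29890 at 8 d on the linear scale. That of the 4 immune markers was 1038 to 1151 at 0 h and 1993 to 2135 at 8 d, of which only CD68, a lysosomal protein that fibroblasts also make, was above background on any array. The part of these changes in the OXPHOS values was not tested. In such bulk samples fewer cells of a type and less RNA per cell cannot be told apart.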

How the data were processed

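RNA of 24 cultures was read on Illumina human-6 v2 arrays of 48701 probes, of which 23687 carry 1 gene symbol, 35 several and 24979 none. The values the authors deposited per array are log2 intensities, from 3.21 to 14.8, whose medians differ between arrays, so they were taken as not yet normalised. The series table ranks probes alike (Spearman 1). The sources used here do not say how the authors corrected them. Here the values were returned to the linear scale, corrected with normexp (offset 16), put on the log2 scale and quantile normalised in limma 3.58.1 (R 4.3.3). A background level was estimated on each array from the lower side of the main peak of its probe values, and a probe with a probability under 0.01 of being background counts as above it. Each gene was read from its brightest named probe on average and kept if that probe passed on 3 or more arrays. One fit of all 24 arrays with 8 time point means (lmFit, eBayes, 16 residual degrees of freedom) gave the 9 comparisons and the F test, with Benjamini-Hochberg adjustment at 0.05. Dim probes have compressed differences, and the 3 arrays per time point limit the precision. The fit was tested on simulated data with independent noise and changes added to a small share of the genes. That simulation held no batch or scaling differences, so it does not bear on them.

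The members, the gene lists and the tests were chosen with earlier results of these data known. The genes with full values were those of the 6 largest called rises and falls at 8 d and the 3 largest elsewhere. Succinate dehydrogenase, CYC1, tissue isoforms and the extremes of each complex by the F test were added. Not every array value or call of these genes is printed. Up to 3 genes are named per pathway list. The labels give the letters A, B and D as biological replicates shared by all time points, which pairs them. The mean correlation of deviations between arrays of the same letter was 0.04 for A, 0.00 for B and 0.06 for D, against −0.02 between other arrays, and 9 of 24 arrays correlated best with their own letter. Alternatives covered the deposited series table, background correction, offset, scaling, filter, probe choice, array weights, a block for the letter and leaving out arrays or batches.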

Additional observations from a re-analysis of the deposited data

How the results depend on the processing

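With each array centred on the median of all its probes, the counts of members called were 2 at 24 h, 2 at 2 d, 7 at 4 d, 8 at 6 d, 12 at 8 d, 2 from 2 d to 4 d and 17 by the F test. The share of rises among all called genes moved there from 46.9% to 20.6% at 2 d, from 49.5% to 37.3% at 4 d and from 50.7% to 27.3% at 8 d. Centring on the median of the tested genes, chosen after seeing the data, gave 12 at 2 d, 32 at 4 d, 31 at 8 d and 46 by the F test. Array weights raised the counts to 1 at 2 h, 3 at 8 h, 24 at 24 h, 25 at 2 d, 39 at 6 d, 8 from 4 d to 8 d and 70 by the F test. Without a filter 7 were called at 2 d. With only the arrays of the 2 times compared, which leaves fewer samples, 8 were called from 2 d to 4 d and 0 from 4 d to 8 d. Against 0 h that setting gave 5 at 24 h, 12 at 2 d, 22 at 4 d, 25 at 6 d and 29 at 8 d. From 4 d to 8 d the series table and the values without background correction gave 8 each, an offset of 50 gave 10 and the filter on all 24 arrays gave 7, and at 8 h each of these 4 gave 1.

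Leaving out 1 array or 1 batch gave 1 to 4 calls at 24 h, 2 to 10 at 2 d, 10 to 24 at 4 d, 7 to 23 at 6 d, 18 to 30 at 8 d, 2 to 18 from 2 d to 4 d, 0 to 8 from 4 d to 8 d and 19 to 51 by the F test, where leaving out batch A gave 19 and batch B 25. Of 81 calls of the genes with full values, 51 were lost with centring on the median of all probes, 47 with batch A left out, 42 with batch B, 14 with batch D, 16 with centring on that of the tested genes, 15 without a filter and 18 with only the 2 times compared, and 0 reversed under any setting; the cause was not tested. With the replicate block, which pairs the letters, the counts were 0 at 2 h, 0 at 8 h, 5 at 24 h, 12 at 2 d, 25 at 4 d, 24 at 6 d, 31 at 8 d, 16 from 2 d to 4 d, 6 from 4 d to 8 d and 46 by the F test. The block took NDUFB9 at 24 h (adjusted p = 0.0511) and NDUFAF2 at 8 d (0.0503) out of the calls and changed no other call of the genes with full values. Probes near background, such as those of ATP5MK, NDUFAF7 and NDUFB4, are the least certain in size.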
